A study of Mus musculus with 27 samples.

Results

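The urea cycle and amino acid catabolism genes described here are 53 genes of the liver's nitrogen and amino acid metabolism, chosen by function and found by their GENCODE M21 symbols among the 43346 genes of the deposited count table. They comprise 8 genes of the urea cycle and its mitochondrial carriers, 5 of tyrosine breakdown, 8 of tryptophan breakdown, 4 of proline and serine breakdown, 8 of glycine, glyoxylate, dimethylglycine and sarcosine metabolism, 4 of transamination and glutamate oxidation, 1 of lysine breakdown, 10 of branched-chain amino acid and propionate breakdown, 3 of histidine breakdown and 2 of cysteine breakdown. RNA was sequenced from hepatocytes of female mice aged 12 weeks from 9 inbred strains: 129S1/SvImJ, A/J, C57BL/6J, CAST/EiJ, DBA/2J, NOD/ShiLtJ, NZO/HlLtJ, PWK/PhJ and WSB/EiJ. Each strain had 3 libraries, 27 in all, and strain is the one factor by which the labels separate them; the labels name no treatment, transgene or deleted gene. The study's design text relates strain differences in histone marks and DNA methylation to expression in the same mice, and the comparison here asks how the 53 genes differed in RNA among the strains. The labels call the libraries of a strain biological replicates without naming the animals, so the p-values measure the spread between these samples. RNA levels in isolated hepatocytes give neither protein nor flux.

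As background, hepatocytes detoxify the ammonia that amino acid breakdown releases. Cps1 and Otc start the urea cycle inside mitochondria, Ass1 and Asl act in its cytosolic part, and the carriers Slc25a13 and Slc25a15 move aspartate and ornithine across the mitochondrial membrane. The other pathways strip the amino group from an amino acid and pass its carbon skeleton to the citric acid cycle, to glucose or to ketone bodies. Many of these genes are expressed mostly in liver, and in the liver lobule the urea cycle is strongest near the portal vein.

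Total counts per library ran from 17015956 to 35078511, and the lowest count of any of the 53 genes in any library was 75. Levels are given in CPM, counts scaled to a common library size after adjustment by trimmed mean of M values (TMM) factors, as mean ± SD of n = 3 libraries. A difference of a strain is its log2 fold change against the mean of the other 8 strains, with the standard error (SE), from edgeR's quasi-likelihood fit to all 27 libraries. Adjusted p-values are Benjamini-Hochberg values over all 14482 genes tested, and a gene is called where the value is under 0.05. The labelled cell type was checked against its markers: all 9 hepatocyte markers were detected in every strain, with a summed level of 128287 to 328871 CPM by strain. The 12 Kupffer cell markers (liver macrophages) summed to between 69.1 and 283.9 CPM by strain, the 11 endothelial markers to between 84.2 and 426.3 CPM, and the 9 lymphocyte markers to between 1.30 and 7.16 CPM.

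Promoter sequence was available for 44 of the 53 genes, and the windows of 3 urea cycle enzymes are shown because all urea cycle genes were lower in the same strain. Each window holds 250 bases before and 50 bases after the RefSeq start on GRCm38.p6, the C57BL/6J reference, 5′ to 3′ on the plus strand. They are chr2:31470020-31470319 for Ass1, chr11:102145263-102145562 for Nags and chrX:10252055-10252354 for Otc, and capitals mark letters that match a motif searched.

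Ass1: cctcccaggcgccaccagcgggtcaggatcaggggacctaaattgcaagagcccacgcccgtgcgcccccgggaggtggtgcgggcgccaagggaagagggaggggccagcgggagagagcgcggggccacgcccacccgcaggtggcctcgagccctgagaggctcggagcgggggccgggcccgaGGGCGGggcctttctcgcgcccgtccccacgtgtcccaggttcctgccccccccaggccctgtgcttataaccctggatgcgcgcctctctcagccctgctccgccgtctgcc

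Nags: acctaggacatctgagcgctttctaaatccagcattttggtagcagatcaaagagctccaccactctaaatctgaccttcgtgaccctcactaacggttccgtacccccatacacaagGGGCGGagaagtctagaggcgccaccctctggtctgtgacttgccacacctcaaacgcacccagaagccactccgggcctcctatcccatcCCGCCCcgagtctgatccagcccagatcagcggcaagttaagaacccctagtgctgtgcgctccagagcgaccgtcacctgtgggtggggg

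Otc: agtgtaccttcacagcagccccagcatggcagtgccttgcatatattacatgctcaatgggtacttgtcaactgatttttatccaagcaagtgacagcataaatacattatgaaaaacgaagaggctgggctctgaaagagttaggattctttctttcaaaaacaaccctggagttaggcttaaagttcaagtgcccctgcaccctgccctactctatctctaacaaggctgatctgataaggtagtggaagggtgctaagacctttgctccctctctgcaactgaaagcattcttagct

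On both strands, 5 motifs were searched: the TATA box as TATAAA, the CCAAT box as CCAAT, the GC box as GGGCGG, a C/EBP-type site as TTGCNNAA and an HNF4-type site as CAAAGNNCA. The Ass1 window held 1 GC box and the Nags window 2, and the Otc window held none of the letters searched. Among the 44 genes with a window, 23 had a GC box, 21 a CCAAT box, 6 the HNF4-type letters, 4 the TATA box and 4 the C/EBP-type letters. Over all 32851 mouse promoter windows the shares were 35.7% for the GC box, 37.4% for the CCAAT box, 6.36% for the HNF4-type letters, 13.6% for the TATA box and 10.8% for the C/EBP-type letters. These matches describe the reference sequence, and no allele of another strain was read.

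All 53 genes passed the filter on low counts, and 49 differed among the 9 strains, a share to be read against 74.2% of all genes tested. The fold between the highest and the lowest strain mean was at least 2 for 32 of the called genes (43.7% of all genes tested were called with such a fold). It was at least 4 for 4 genes, Csad, Acmsd, Afmid and Asl (14.4% of all genes tested). The median fold was 2.27 for the 53 genes and 1.93 for all genes tested. For all genes 0.5 CPM was added to both means first, which lowers the fold of weakly expressed genes, so the medians are not strictly alike. Differences between strain means made up a median of 80.9% of the variance of log2(CPM + 0.5) of a gene. The share ran from 24.9% for Tdo2 to 95.0% for Afmid. It is not corrected for the number of strain means fitted, so part of it arises without any strain effect. Its value over all genes tested was not computed. The SD within strains had a median of 0.21 in log2(CPM + 0.5). The 4 genes not called were Tat, Tdo2, Kynu and Glud1. Counts were not whole in 20 or more libraries for 7 genes, among them Mccc1 in 24. Exons of 10 genes overlap a gene on the opposite strand, including Mccc1, Bckdha (B3gnt8) and Pcca (Ggact), and exons of 5 overlap one on the same strand, including Aldh4a1, Hibadh, Agxt2 and Hoga1. Levels of these genes are uncertain to that extent. Per kilobase of transcript, Ass1 had the highest mean level at 1554 CPM per kb, followed by Hpd at 1147 and Cps1 at 976, and the lowest levels were those of Acmsd at 8.46, Mccc1 at 6.15 and Sdsl at 4.85 CPM per kb.

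**Figure D1:**
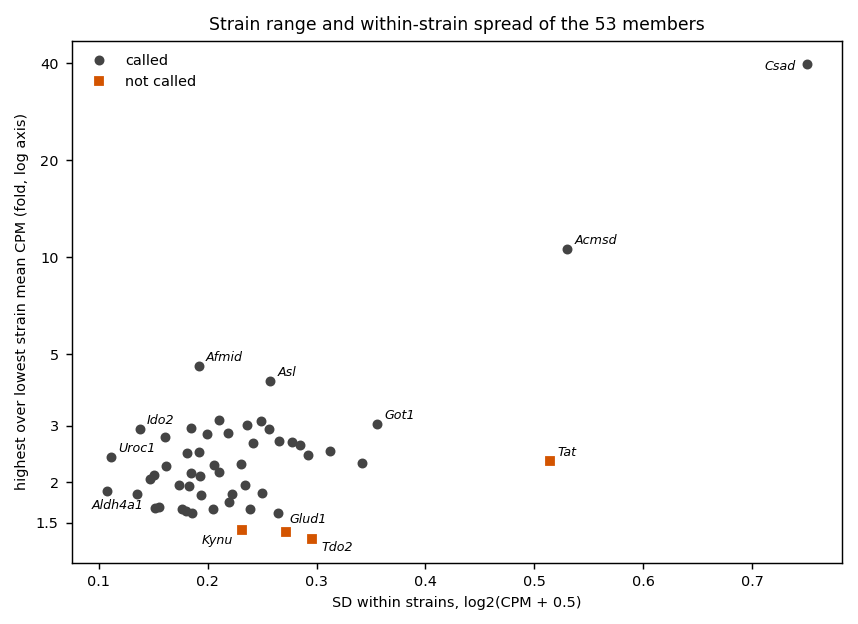
Each point is 1 of the 53 genes; the horizontal axis is the SD of log2(CPM + 0.5) within strains and the vertical axis, on a log scale, the fold between the highest and the lowest strain mean CPM. Csad (39.6-fold) and Acmsd (10.6-fold) combine the widest strain range with a wide spread within strains, whereas Uroc1 (SD 0.11) and Ido2 (SD 0.14) differ among strains with little spread, and the 4 genes not called are marked as squares.

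Urea cycle genes were lowest in A/J and mostly highest in CAST/EiJ. All 8 were called among the strains, all 8 were lower in A/J than in the mean of the other strains (median log2 difference -0.62), and 7 were higher in CAST/EiJ (median 0.58). Of all genes tested 74.2% were called among the strains, 11.6% were lower in A/J and 20.1% higher in CAST/EiJ. A/J had the lowest strain mean for 7 of the 8, with Slc25a15 lowest in 129S1/SvImJ. Of the 7 named here, CAST/EiJ had the highest mean for Otc, Asl, Slc25a13 and Slc25a15, WSB/EiJ for Cps1 and Ass1, and NZO/HlLtJ for Nags. Averaged over the 8 genes, the log2 level relative to the mean of the 9 strains was -0.64 ± 0.16 in A/J, -0.38 ± 0.13 in C57BL/6J, 0.30 ± 0.22 in WSB/EiJ and 0.56 ± 0.02 in CAST/EiJ (SD, n = 3). Without A/J replicate 2 the number lower in A/J was 5, without A/J replicate 3 it was 6, and leaving out any one of the 3 CAST/EiJ libraries left 5 higher in CAST/EiJ. In WSB/EiJ 3 were higher (15.5% of all genes), and 1 without WSB/EiJ replicate 4 or without TMM factors.

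**Figure D2:**
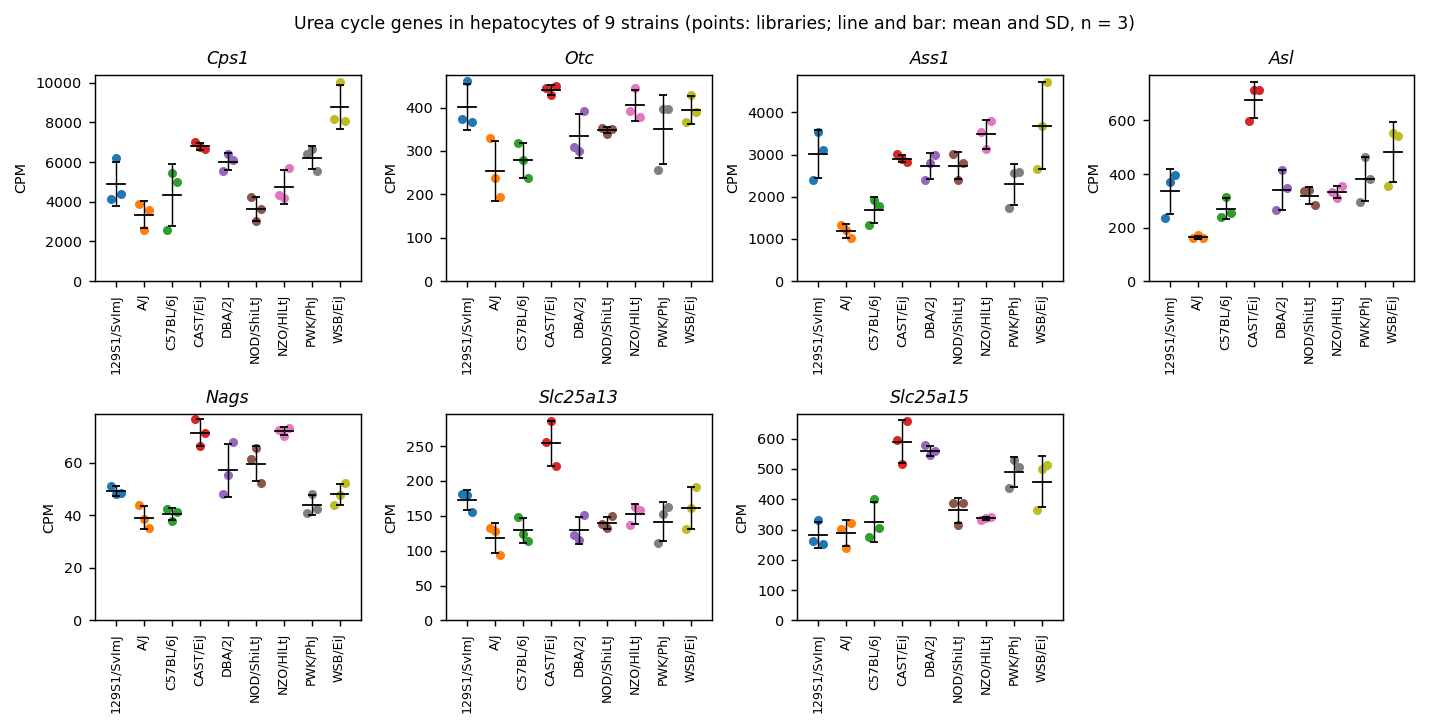
Level in CPM of 7 urea cycle genes by strain, with a point per library and the mean and SD of the 3 libraries of each strain; axes start at 0. The A/J points lie below every other library for Asl (159.9 to 171 CPM against at least 237) and the CAST/EiJ points above every other for Asl and Slc25a13.

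Cps1 (carbamoyl phosphate synthetase, which fixes ammonia and is the entry step; chr1:67123026-67231259) read 3899, 2576 and 3587 CPM in the A/J libraries and 8162, 10044 and 8085 CPM in those of WSB/EiJ. The WSB/EiJ libraries lay above all others, of which the highest was a CAST/EiJ library at 7009.5 CPM, whereas the A/J libraries overlapped those of NOD/ShiLtJ and C57BL/6J. WSB/EiJ was higher by a log2 difference of 0.85 ± 0.16 (adjusted p = 0.00035). A/J was lower at -0.71 ± 0.19 (adjusted p = 0.00649), which became -0.55 with adjusted p = 0.0728 without A/J replicate 2 and -0.54 with adjusted p = 0.0718 when the mean levels of the Kupffer and endothelial markers were covariates. Nags makes N-acetylglutamate, the activator that Cps1 needs (chr11:102145513-102149477). Its levels were 43.7, 38.4 and 35.1 CPM in A/J, 42.2, 37.9 and 41.1 in C57BL/6J, 76.4, 66.3 and 71.4 in CAST/EiJ and 72.5, 70.1 and 73.0 in NZO/HlLtJ. The first pair of strains lay below the second pair without overlap, with A/J lower by -0.47 ± 0.10 (adjusted p = 0.00121) and NZO/HlLtJ higher by 0.52 ± 0.09 (adjusted p = 0.000149). Nags counts were not whole in 25 of the 27 libraries and an antisense gene overlaps its exons, so its level is uncertain.

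Otc (ornithine transcarbamylase, which joins carbamoyl phosphate to ornithine; chrX:10252305-10321024) varied least of the 8, with 1.74-fold between strain means. Its A/J libraries read 329, 238 and 194 CPM and its CAST/EiJ libraries 444, 429 and 450.5 CPM, with no overlap between these 2 strains. A/J was lower by -0.53 ± 0.14 (adjusted p = 0.00845), and that call ended without A/J replicate 2 (-0.48, adjusted p = 0.0553) or replicate 3 (-0.37, adjusted p = 0.138). CAST/EiJ was higher by 0.37 ± 0.13 (adjusted p = 0.0301), and that call ended without any one of its libraries (adjusted p 0.0769 to 0.107) and with the cell marker covariates (0.0766). Ass1 (argininosuccinate synthetase, which adds the second nitrogen from aspartate; chr2:31470207-31520672) read 1341, 1212 and 1022 CPM in A/J, 1336, 1922 and 1780.0 in C57BL/6J and 2667, 3678 and 4714 in WSB/EiJ. A/J overlapped only C57BL/6J and was lower by -1.20 ± 0.17 (adjusted p = 1.62e-05). The WSB/EiJ libraries spread widely, and the increase there of 0.63 ± 0.15 (adjusted p = 0.00259) became 0.41 with adjusted p = 0.0979 without WSB/EiJ replicate 4 and 0.27 with adjusted p = 0.189 without TMM factors. Ass1 counts were not whole in any of the 27 libraries, so its level is uncertain.

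Asl (argininosuccinate lyase; chr5:130011258-130029247) had the widest strain range of the urea cycle, 4.13-fold. Its libraries read 159.9, 171 and 160.3 CPM in A/J, below all others, and 599, 713 and 716 CPM in CAST/EiJ, above all others. A/J was lower by -1.20 ± 0.17 (adjusted p = 1.21e-05) and CAST/EiJ higher by 1.10 ± 0.14 (adjusted p = 7.42e-07).

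Of the carriers, Slc25a13 (citrin, the aspartate-glutamate carrier; chr6:6041218-6217173) read 255, 286 and 221 CPM in CAST/EiJ, above all other libraries, and 132, 129 and 93.2 CPM in A/J. CAST/EiJ was higher by 0.84 ± 0.12 (adjusted p = 4.92e-06). The A/J difference of -0.40 ± 0.13 (adjusted p = 0.0281) became -0.27 with adjusted p = 0.277 without A/J replicate 3 and -0.32 with adjusted p = 0.108 with the cell marker covariates. Slc25a15 (the ornithine carrier; chr8:22375551-22398597) had higher levels in CAST/EiJ (596, 516 and 658 CPM) and DBA/2J (578, 545 and 559 CPM) and lower ones in 129S1/SvImJ (263, 331 and 252 CPM) and A/J (304, 239 and 323 CPM). CAST/EiJ was higher by 0.65 ± 0.12 (adjusted p = 0.000124) and DBA/2J by 0.56 ± 0.12 (adjusted p = 0.00163). PWK/PhJ (436, 530 and 506 CPM) was also called higher, by 0.35 (adjusted p = 0.0303). The PWK/PhJ call ended with the cell marker covariates (adjusted p = 0.0703), with no filter on low counts (0.0724) and with the replicate number as a factor (0.0542). Of the lower pair, 129S1/SvImJ lost its call without its replicate 1 or 3 (adjusted p = 0.0517 and 0.0509) and A/J lost it without its replicate 2 (adjusted p = 0.0697). The 129S1/SvImJ call also ended without TMM factors (-0.33, adjusted p = 0.0745) and the A/J call with the cell marker covariates (-0.42, adjusted p = 0.0564).

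The lower levels in A/J reached beyond the urea cycle. In A/J 33 of the 53 genes were lower, where 11.6% of all genes tested were, and 0 were higher, where 15.9% were; at an unadjusted p under 0.05 edgeR had 0 higher and 38 lower, and DESeq2 called 0 higher and 35 lower. The median log2 difference of the 53 genes in A/J was -0.47, against 0.02 for all genes tested. A/J had the lowest strain mean for 21 of the 53 (13.5% of all genes tested had theirs there) and the highest for 0. By pathway, the genes lower in A/J were 8 of 8 in the urea cycle, 8 of 10 in branched-chain breakdown, 5 of 8 in glycine and glyoxylate metabolism, 3 of 5 in tyrosine breakdown, 2 of 4 in transamination, 2 of 4 in proline and serine breakdown, 2 of 8 in tryptophan breakdown, 1 of 3 in histidine breakdown, 1 of 2 in cysteine breakdown and the 1 lysine gene. Without A/J replicate 3 the total lower in A/J was 21, with 4 of 10 branched-chain, 3 of 8 glycine and glyoxylate and 1 of 5 tyrosine genes, and without A/J replicate 2 the glycine and glyoxylate count was 2. With the cell marker covariates 5 branched-chain, 2 glycine and glyoxylate, 2 tyrosine, 1 tryptophan and 0 cysteine genes were lower. With the replicate number as a factor 6 branched-chain, 3 glycine and glyoxylate and 0 cysteine genes were. The 15 genes that stayed lower in A/J in every refit planned, including those without any single library, included Ass1, Asl, Nags, Hpd, Haao, Agxt2, Got1, Gpt2, Aass, Bckdhb, Ivd, Mccc1, Mccc2 and Uroc1.

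Other measures of the A/J libraries stand beside this. Alb, the albumin gene, took 17.6% to 19.3% of their counts, against 9.17% to 16.4% in the other 24 libraries, and 8 of the 9 hepatocyte markers were called higher in A/J and 1 lower (median log2 difference 0.79). Their TMM factors ran from 0.722 to 0.900, a range that also held libraries of WSB/EiJ, C57BL/6J, DBA/2J and PWK/PhJ. Without TMM factors, 45 of the 53 genes were lower in A/J and 0 higher, with the median of all genes tested moved to -0.30. The summed Kupffer markers stood at 236.9 ± 86.5 CPM in A/J and 283.9 ± 45.1 CPM in C57BL/6J, against 69.1 ± 30.2 CPM in 129S1/SvImJ. By library they ran from 156.2 to 328.2 CPM in A/J, from 234.8 to 323.2 CPM in C57BL/6J and from 157.7 to 458.9 CPM in PWK/PhJ, where the highest library stood apart from the other two. Of the 12 Kupffer markers 9 were called higher in A/J (15.9% of all genes tested), 12 in C57BL/6J (11.6%) and 7 in PWK/PhJ (19.4%), where 2 were lower and all 11 endothelial markers were higher. With the mean levels of the Kupffer and endothelial lists as covariates, 21 of the 53 genes stayed lower in A/J, 5 of them in the urea cycle, and 3 stayed lower in C57BL/6J. The part of the albumin share in the A/J result was not tested. In these bulk samples fewer cells of a type and less RNA per cell cannot be told apart.

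**Figure D3:**
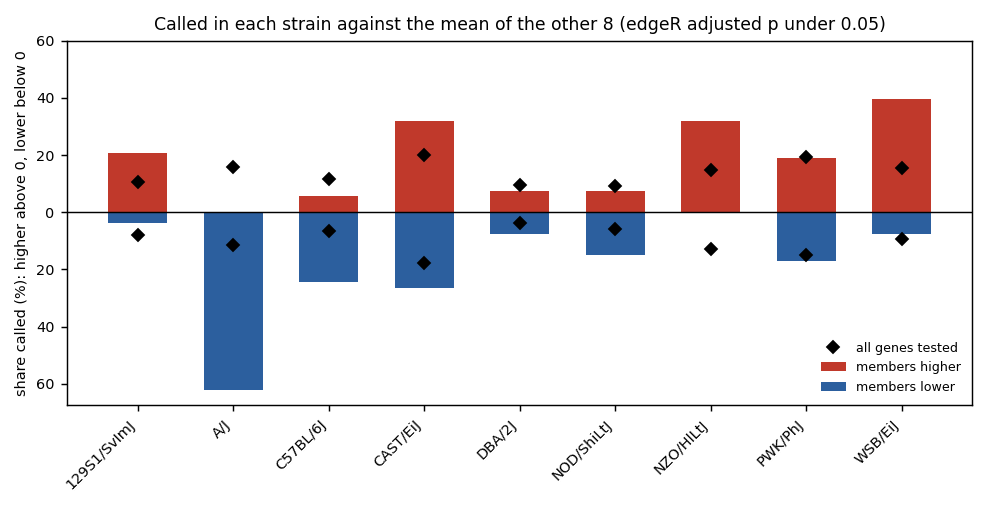
Share of the 53 genes called higher (bars above 0) and lower (bars below 0) in each strain against the mean of the other 8, in percent; diamonds give the same shares for all genes tested. In A/J 33 genes are lower and none higher, in NZO/HlLtJ 17 are higher and none lower, and in PWK/PhJ the bars stand near the diamonds.

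Of the other strains, WSB/EiJ, NZO/HlLtJ and 129S1/SvImJ had more members higher than lower, C57BL/6J more lower than higher, and the others smaller differences between the counts. In WSB/EiJ 21 genes were higher and 4 lower, where 15.5% and 9.25% of all genes tested were, and WSB/EiJ had the highest strain mean for 17 of the 53 (12.3% of all genes). With median-of-ratios size factors the split was again 21 to 4. Without TMM factors, which moved the median of all genes to -0.35, it was 10 to 10, and without WSB/EiJ replicate 4 the number higher was 12. In WSB/EiJ 4 of 9 hepatocyte markers were higher. In NZO/HlLtJ 17 were higher and 0 lower, where 14.8% and 12.9% of all genes were (22 and 5 at an unadjusted p under 0.05 in edgeR), and its mean was the highest for 13 (11.8% of all genes). That count fell to 10 without NZO/HlLtJ replicate 1 or 3 and to 8 without replicate 2, it was 6 higher and 5 lower with the cell marker covariates, 32 to 0 without TMM factors, and DESeq2 called 17 higher and 4 lower. In NZO/HlLtJ 8 of 11 endothelial, 6 of 10 stellate and 4 of 9 hepatocyte markers were lower. In 129S1/SvImJ 11 were higher and 2 lower (10.5% and 7.86% of all genes), and without its replicate 2 the 11 became 6, while the split was 24 to 1 without TMM factors and 7 to 3 with the cell marker covariates. In 129S1/SvImJ 4 of 12 Kupffer markers were lower. In CAST/EiJ 17 were higher and 14 lower (20.1% and 17.8% of all genes), and its mean was the highest for 11 (18% of all genes). Without TMM factors the CAST/EiJ split was 24 to 6, without its replicate 1 the number higher was 10, and without its replicate 4 the split was 11 to 9. It was 11 to 8 with the replicate number as a factor. With the cell marker covariates the balance turned, to 10 higher and 16 lower. In CAST/EiJ 7 of 12 Kupffer and 5 of 9 hepatocyte markers were lower (17.8% of all genes).

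In C57BL/6J 3 genes were higher and 13 lower (11.6% and 6.5% of all genes tested), with a median log2 difference of -0.26. The number lower was 7 without C57BL/6J replicate 2, 5 without replicate 4, 8 with no filter on low counts, 17 with DESeq2 and 20 without TMM factors. With the cell marker covariates 1 was higher and 3 were lower. PWK/PhJ had 10 higher and 9 lower (19.4% and 14.8% of all genes), which became 5 higher without its replicate 2 and 6 higher without its replicate 3, and the split was 11 to 6 without TMM factors and 11 to 5 with the cell marker covariates. NOD/ShiLtJ had 4 higher and 8 lower (9.2% and 5.72% of all genes), and the 8 became 3 without its replicate 2 or 3; without TMM factors the split was 6 to 4, with the cell marker covariates 7 to 8 and with no filter 3 to 5. DBA/2J had 4 higher and 4 lower (9.5% and 3.78% of all genes). Without TMM factors the DBA/2J split was 2 to 1. Its total of 8 was 3 without its replicate 2, 1 without its replicate 3, and 5 without any one of 9 libraries of other strains. Over the 9 strains 174 differences were called, and 74 of them, 39 higher and 35 lower, held in every planned refit. The 9 contrasts share libraries and are not independent.

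**Figure D4:**
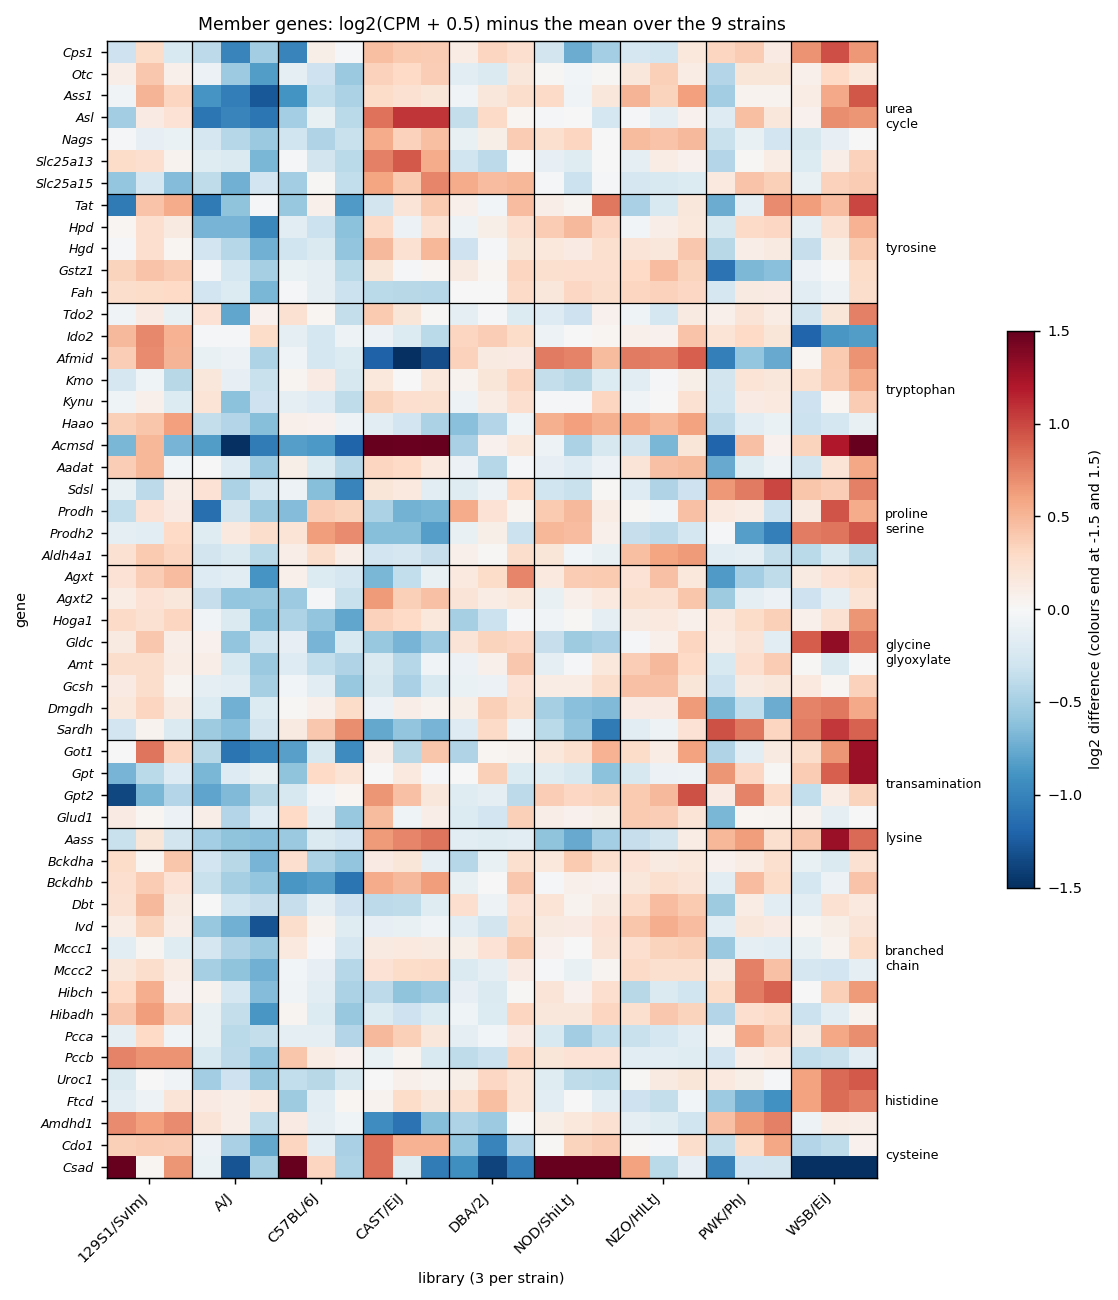
Rows are 52 of the 53 genes by pathway and columns the 27 libraries by strain; colour is log2(CPM + 0.5) minus the mean over the 9 strains, with colours ending at -1.5 and 1.5. The A/J columns are mostly blue, the urea cycle rows are red in CAST/EiJ, and Csad and Acmsd reach the ends of the scale.

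Tyrosine breakdown runs from Tat through Hpd, Hgd and Gstz1 to Fah, and 4 of its 5 genes were called, where 74.2% of all genes tested were. Tat (tyrosine aminotransferase, the first step, induced by glucocorticoids and glucagon) ran from 778 ± 281 CPM in A/J to 1809 ± 353 CPM in WSB/EiJ, but its libraries spread so widely within strains (SD 0.51 in log2) that the strain effect had adjusted p = 0.11. DESeq2 called it (adjusted p = 0.0435), as did edgeR without the filter on low counts (adjusted p = 0.0210), without 129S1/SvImJ replicate 1 (0.0328) and without PWK/PhJ replicate 3 (0.0427). Hpd (hydroxyphenylpyruvate dioxygenase) ran from 906 ± 95.7 CPM in A/J to 2053 ± 131 CPM in NOD/ShiLtJ, and its A/J libraries at 960.4, 962 and 795 CPM lay below all others. Hgd (homogentisate dioxygenase) ran from 299 ± 44.0 CPM in A/J to 550.3 ± 55.2 CPM in CAST/EiJ and was not called among the strains with the cell marker covariates (adjusted p = 0.158). Gstz1 (maleylacetoacetate isomerase) was lowest in PWK/PhJ at 185, 250.1 and 259 CPM, below all other libraries and different by -0.89 ± 0.12 (adjusted p = 2.87e-06), and highest in 129S1/SvImJ at 521 ± 17.2 CPM. Its exons overlap Pomt2 on the opposite strand and its counts were not whole in any library, so this level is uncertain. Fah (fumarylacetoacetase, the last step) lay between 301 ± 1.63 CPM in CAST/EiJ and 504 ± 5.45 in NZO/HlLtJ.

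Tryptophan breakdown held both the gene with the smallest strain effect of the set and 4 of the 15 with the largest strain effect. Tdo2 (tryptophan dioxygenase, which carries most hepatic tryptophan breakdown) had the smallest F of the 53 at 0.87 (adjusted p = 0.570). Its strain means ran from 798 ± 110 CPM in NOD/ShiLtJ to 1067 ± 384 CPM in WSB/EiJ. The 3 libraries of WSB/EiJ (725, 995 and 1483 CPM) and of A/J (1024, 509.7 and 917 CPM) were spread most widely, holding the highest and the lowest library of all 27. Ido2, a second dioxygenase for the same step, had an F of 20.9 (chr8:24531892-24576333). It read 34.5, 43.4 and 44.2 CPM in WSB/EiJ, below every other library, and 112, 131 and 114 CPM in 129S1/SvImJ, above every other. WSB/EiJ was lower by -1.09 ± 0.11 (adjusted p = 2.56e-08) and 129S1/SvImJ higher by 0.65 ± 0.09 (adjusted p = 1.27e-05).

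Afmid (arylformamidase, the next step, which releases kynurenine; chr11:117825924-117839908) had the largest strain effect of the set, with an F of 35.6 and 4.59-fold between strain means. Its libraries read 36.2, 27.6 and 33.3 CPM in CAST/EiJ and 41.1, 56.5 and 49.8 CPM in PWK/PhJ, all below those of the other 7 strains. The highest strain means were those of NZO/HlLtJ (145, 143 and 158 CPM) and NOD/ShiLtJ (146, 142 and 117 CPM). CAST/EiJ differed by -1.56 ± 0.14 (adjusted p = 1.89e-09), PWK/PhJ by -0.89 ± 0.13 (adjusted p = 8.25e-06) and NZO/HlLtJ by 0.91 ± 0.11 (adjusted p = 1.12e-06). Afmid counts were not whole in 25 libraries and its exons overlap Tk1 on the opposite strand and Gm20708 on its own, so the level is uncertain. Kmo (kynurenine monooxygenase) ran from 131 ± 9.52 CPM in NOD/ShiLtJ to 217 ± 24.2 CPM in WSB/EiJ and lost its call with the replicate number as a factor (adjusted p = 0.0543) and without TMM factors (0.0729). Kynu (kynureninase) ran from 89.9 ± 8.05 CPM in C57BL/6J to 128 ± 4.69 CPM in CAST/EiJ and was not called (adjusted p = 0.248). Without A/J replicate 1 its value was 0.0418, and without TMM factors 0.00755.

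Haao and Acmsd act in turn on the branch that leads to NAD synthesis, Haao making the precursor and Acmsd diverting it to oxidation. Haao (chr17:83831156-83847963) read 311, 329 and 311 CPM in NOD/ShiLtJ, 321, 303 and 327 in NZO/HlLtJ and 274, 287 and 329 in 129S1/SvImJ, all above the other 6 strains. Its lowest strain mean was that of A/J, with 168, 158 and 138 CPM overlapping DBA/2J, CAST/EiJ and others, lower by -0.54 ± 0.11 (adjusted p = 0.000805). Acmsd (chr1:127729413-127767978) spanned 10.6-fold, from 9.04, 5.47 and 7.74 CPM in A/J to 90.8, 47.3 and 97.3 CPM in CAST/EiJ. CAST/EiJ was higher by 2.46 ± 0.23 (adjusted p = 6.71e-09) and WSB/EiJ, at 21.0, 38.8 and 56.3 CPM, by 1.32 ± 0.26 (adjusted p = 0.000454), and these 2 strains overlapped. Acmsd was lower in A/J by -1.36 ± 0.33 (adjusted p = 0.00383), a call that ended with the cell marker covariates (-0.92, adjusted p = 0.0584). An antisense gene overlaps its exons. Aadat (kynurenine and aminoadipate aminotransferase) lay between 43.3 ± 10.4 CPM in PWK/PhJ and 69.8 ± 7.15 in NZO/HlLtJ and was not called among the strains with the cell marker covariates (adjusted p = 0.234).

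**Figure D5:**
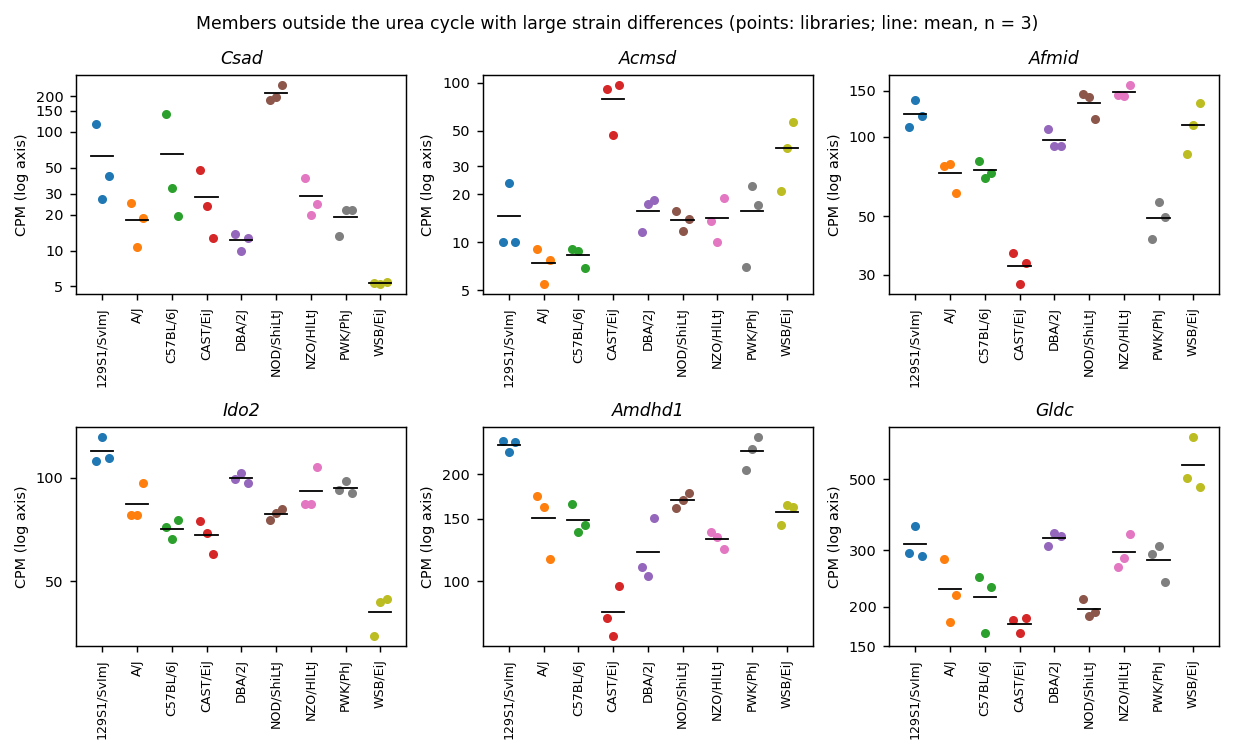
Level in CPM, on log axes, of 6 genes outside the urea cycle with large strain effects, with a point per library and a line at the mean of the 3 libraries of a strain. Csad is high in NOD/ShiLtJ and low in WSB/EiJ, Acmsd is high in CAST/EiJ, Afmid and Amdhd1 are low in CAST/EiJ, Ido2 is low in WSB/EiJ and Gldc is high there.

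Cysteine breakdown held the widest strain range. Csad (cysteine sulfinate decarboxylase, which leads to taurine; chr15:102176999-102204724) spanned 39.6-fold between strain means. Its libraries read 186, 195 and 250.4 CPM in NOD/ShiLtJ, above all others, and 5.31, 5.20 and 5.43 CPM in WSB/EiJ, below all others. NOD/ShiLtJ was higher by 3.21 ± 0.32 (adjusted p = 4.90e-08) and WSB/EiJ lower by -2.76 ± 0.53 (adjusted p = 0.000388). Its SD within strains was also the largest of the set, 0.75 in log2, and in 2 strains 1 library stood apart. C57BL/6J read 140.3, 33.7 and 19.3 CPM and 129S1/SvImJ 117, 27.4 and 42.8 CPM, the high value being replicate 1 in both. Replicate 1 was also highest in CAST/EiJ (47.9 against 23.5 and 12.7 CPM), NZO/HlLtJ (41.0 against 20.1 and 24.5) and A/J (24.9 against 10.7 and 18.9). It was lowest in NOD/ShiLtJ and in PWK/PhJ (13.1 against 21.9 and 22.1 CPM). The call in C57BL/6J (1.29 ± 0.37, adjusted p = 0.0159) became a difference of 0.00 with adjusted p = 1 without replicate 1, and that in 129S1/SvImJ (1.23 ± 0.37, adjusted p = 0.0218) became 0.40 with adjusted p = 0.632. With the cell marker covariates their adjusted p-values were 0.127 and 0.125. Csad exons overlap Zfp740 on the opposite strand. Cdo1 (cysteine dioxygenase, the step before) ran from 538 ± 101 CPM in DBA/2J to 1310.3 ± 165 CPM in CAST/EiJ, which was higher by 0.69 ± 0.16 (adjusted p = 0.00168).

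Of the 8 glycine and glyoxylate genes, all called, Gldc, Sardh, Dmgdh and Hoga1 had their highest strain mean in WSB/EiJ (74.2% of all genes tested were called and 12.3% highest there). Gldc (the glycine decarboxylase subunit of the glycine cleavage complex; chr19:30098447-30175429) read 506, 681 and 472 CPM in WSB/EiJ, above all other libraries, and 182, 165 and 184 CPM in CAST/EiJ. The WSB/EiJ difference was 1.16 ± 0.12 (adjusted p = 6.29e-08) and the CAST/EiJ difference -0.69 ± 0.14 (adjusted p = 0.000387). Other subunits of the same complex had their highest means in NZO/HlLtJ, with Amt between 37.7 ± 3.53 CPM in C57BL/6J and 62.3 ± 4.31 there and Gcsh between 48.8 ± 4.76 CPM in CAST/EiJ and 78.4 ± 7.79 there. In WSB/EiJ their differences were -0.08 ± 0.13 for Amt (adjusted p = 0.681) and 0.20 ± 0.11 for Gcsh (adjusted p = 0.215), and whether the subunits differ from Gldc was not tested. Sardh (sarcosine dehydrogenase; chr2:27188393-27248337) read 1807, 2216 and 1950.0 CPM in WSB/EiJ and 2046, 1827 and 1324 CPM in PWK/PhJ, against 619, 704 and 654 CPM in CAST/EiJ. WSB/EiJ was higher by 1.01 ± 0.14 (adjusted p = 3.79e-06) and PWK/PhJ by 0.79 ± 0.14 (adjusted p = 8.29e-05), while CAST/EiJ was lower by -0.78 ± 0.16 (adjusted p = 0.000387). The PWK/PhJ call ended with the cell marker covariates (0.49, adjusted p = 0.0562).

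Dmgdh (dimethylglycine dehydrogenase, one step before Sardh in choline breakdown; chr13:93674433-93752833) read 792, 818 and 698 CPM in WSB/EiJ, higher by 0.79 ± 0.11 (adjusted p = 1.09e-05). Its lowest strain means were those of NOD/ShiLtJ (333, 305 and 297 CPM) and PWK/PhJ (295, 364 and 280.3 CPM), with which A/J replicate 2 overlapped. PWK/PhJ was thus among the higher strains for Sardh and among the lower for Dmgdh, where its difference was -0.67 ± 0.13 (adjusted p = 0.000229). Antisense genes overlap the exons of both. Agxt (alanine-glyoxylate aminotransferase of the peroxisome) lay between 162 ± 25.6 CPM in PWK/PhJ and 318 ± 70.6 in DBA/2J, and Agxt2, its mitochondrial relative, from 69.5 ± 6.69 CPM in A/J to 137 ± 14.1 in CAST/EiJ. Hoga1 (which splits hydroxyoxoglutarate to glyoxylate) ran from 66.4 ± 7.18 CPM in C57BL/6J to 129 ± 28.5 in WSB/EiJ, and its C57BL/6J difference of -0.70 ± 0.13 (adjusted p = 0.000267) held in every planned refit.

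All 3 histidine genes were among the 15 with the largest strain effect, and no strain was at the same end for all 3. Uroc1 (urocanase; chr6:90333284-90364551) read 731, 865 and 909.6 CPM in WSB/EiJ, above all other libraries, and 334, 387 and 325 CPM in A/J, with differences of 0.90 ± 0.09 (adjusted p = 2.33e-08) and -0.52 ± 0.10 (adjusted p = 0.000414). Amdhd1 (imidazolonepropionase, the next enzyme; chr10:93523338-93540033) read 78.8, 70.0 and 96.9 CPM in CAST/EiJ, below all others. It was highest in 129S1/SvImJ at 248, 231 and 247 CPM and in PWK/PhJ at 205, 236 and 255 CPM. CAST/EiJ differed by -1.01 ± 0.13 (adjusted p = 1.08e-06), 129S1/SvImJ by 0.76 ± 0.11 (adjusted p = 2.38e-05) and PWK/PhJ by 0.69 ± 0.11 (adjusted p = 3.28e-05). Ftcd (formiminotransferase cyclodeaminase, which passes the last carbon to folate; chr10:76575648-76590338) read 603, 708 and 672 CPM in WSB/EiJ, above all others, and 271, 234 and 211 CPM in PWK/PhJ, below all others. These differed by 0.83 ± 0.10 (adjusted p = 1.67e-06) and -0.83 ± 0.12 (adjusted p = 7.39e-06).

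Aass, the entry enzyme of lysine breakdown (chr6:23072173-23132986), had an F of 19.0. It was higher in WSB/EiJ (464, 857 and 628 CPM; 1.00 ± 0.13, adjusted p = 1.65e-06), CAST/EiJ (545, 582 and 609.9 CPM; 0.81 ± 0.13, adjusted p = 1.94e-05) and PWK/PhJ (493, 540.5 and 412 CPM; 0.51 ± 0.13, adjusted p = 0.00376), the 3 strains that descend from wild mice. These lay above the libraries of the other 6 strains, and the PWK/PhJ call ended without its replicate 2 (adjusted p = 0.0568) and with the cell marker covariates (0.11). Its lowest strain means were in NOD/ShiLtJ (231, 207 and 245 CPM) and A/J (246, 230.1 and 225 CPM).

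In proline and serine breakdown, Prodh (proline dehydrogenase) ran from 110.0 ± 9.79 CPM in CAST/EiJ, with A/J next at 110.5 ± 31.7, to 253 ± 70.3 in WSB/EiJ. Prodh2 (hydroxyproline dehydrogenase) lay between 116 ± 8.66 CPM in CAST/EiJ and 339 ± 22.0 in WSB/EiJ, where it was higher by 0.93 ± 0.14 (adjusted p = 2.12e-05). Aldh4a1 (the dehydrogenase that serves both proline and hydroxyproline; chr4:139622866-139649690) had the reverse end in WSB/EiJ, with 294, 332 and 292 CPM there and 531, 587 and 607 CPM in NZO/HlLtJ, above all other libraries. NZO/HlLtJ was higher by 0.63 ± 0.09 (adjusted p = 7.57e-06) and WSB/EiJ lower by -0.39 ± 0.10 (adjusted p = 0.00349). Sdsl (serine dehydratase-like) had the lowest level of the set and was highest in PWK/PhJ at 10.9, 12.0 and 14.1 CPM (0.95 ± 0.15, adjusted p = 2.60e-05) and lowest in C57BL/6J at 4.59 ± 1.67 CPM.

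Among the transaminases, Got1 (cytosolic aspartate aminotransferase) ran from 136 ± 36.3 CPM in A/J to 412 ± 149 in WSB/EiJ. Gpt (cytosolic alanine aminotransferase) read 452, 650.1 and 855 CPM in WSB/EiJ, higher by 1.00 ± 0.16 (adjusted p = 5.92e-05), and was lowest in 129S1/SvImJ at 260.0 ± 45.3 CPM. Gpt2, the mitochondrial form, was lowest in 129S1/SvImJ at 113 ± 34.5 CPM and in A/J at 127 ± 17.3, and highest in NZO/HlLtJ at 303 ± 67.1 CPM. Its differences of -0.90 ± 0.18 in 129S1/SvImJ (adjusted p = 0.000682), -0.71 ± 0.17 in A/J (adjusted p = 0.00361) and 0.70 ± 0.15 in NZO/HlLtJ (adjusted p = 0.00158) held in every planned refit. Glud1 (glutamate dehydrogenase, which releases ammonia from glutamate) had the second smallest F of the set, 1.13 (adjusted p = 0.404). Its lowest strain mean was in PWK/PhJ (535, 877 and 888 CPM, mean 767 ± 201), close to that of A/J, and its highest in NZO/HlLtJ (1133, 1111 and 994 CPM). PWK/PhJ and NZO/HlLtJ did not overlap, but the low mean of PWK/PhJ rests on its library at 535 CPM. Without TMM factors Glud1 was called (adjusted p = 0.0200).

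All 10 branched-chain and propionate genes were called, with folds of 1.63 to 2.82, and A/J had the lowest mean of 6, where 74.2% of all genes tested were called and 13.5% lowest in A/J. Of the branched-chain ketoacid dehydrogenase complex, Bckdha ran from 101 ± 14.7 CPM in A/J to 167 ± 13.7 in NOD/ShiLtJ, Bckdhb from 39.5 ± 3.91 CPM in C57BL/6J to 112 ± 5.47 in CAST/EiJ, and Dbt lay between 60.9 ± 5.24 CPM in CAST/EiJ and 99.3 ± 6.04 in NZO/HlLtJ. Subunits of a complex thus had their extremes in different strains, though a difference between the subunits was not tested. Bckdhb in C57BL/6J read 41.2, 42.3 and 35.1 CPM, below all other libraries, with a difference of -1.06 ± 0.14 (adjusted p = 3.22e-06), and its counts were not whole in any library. Bckdha lost its call without 129S1/SvImJ replicate 3 (adjusted p = 0.0508), A/J replicate 2 (0.0691), A/J replicate 3 (0.0963) or NOD/ShiLtJ replicate 2 (0.0511).

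In leucine breakdown, Ivd (isovaleryl-CoA dehydrogenase) read 86.9, 78.2 and 52.6 CPM in A/J, below all other libraries and lower by -0.95 ± 0.13 (adjusted p = 9.61e-06), against 179.9 ± 8.07 CPM in NZO/HlLtJ. Its counts were not whole in 26 libraries. Mccc1 and Mccc2, the subunits of methylcrotonyl-CoA carboxylase, were both lowest in A/J, at 30.6 ± 3.45 and 31.6 ± 2.50 CPM, and highest in NZO/HlLtJ (51.0 ± 2.06) and PWK/PhJ (66.8 ± 14.5). In valine breakdown, Hibch (hydroxyisobutyryl-CoA hydrolase) lay between 34.5 ± 2.57 CPM in CAST/EiJ and 78.6 ± 16.8 in PWK/PhJ, and Hibadh, the dehydrogenase that follows, from 138 ± 35.5 CPM in A/J to 254 ± 25.5 in 129S1/SvImJ. The subunits of propionyl-CoA carboxylase had their extremes in different strains, and whether their patterns differ was not tested. Pcca ran from 48.1 ± 4.88 CPM in NOD/ShiLtJ to 87.8 ± 17.3 in WSB/EiJ, while Pccb ran from 73.1 ± 8.95 CPM in A/J to 156 ± 4.51 in 129S1/SvImJ, where its libraries at 161, 153 and 153 CPM lay above all others (0.78 ± 0.11, adjusted p = 1.45e-05).

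A list of 48 further amino acid catabolism genes, of which 44 were tested and 38 called, had 24 genes lower and 1 higher in A/J (median log2 difference -0.45) and 15 lower and 1 higher in C57BL/6J. The shares of all genes tested were 74.2% called among strains, 11.6% lower in A/J and 6.5% lower in C57BL/6J. The list's largest strain effects were those of Ahcy (S-adenosylhomocysteine hydrolase), from 45.2 ± 5.11 CPM in NZO/HlLtJ to 1341 ± 207 in PWK/PhJ, Dhtkd1 (of lysine and tryptophan breakdown), from 43.2 ± 0.326 CPM in NOD/ShiLtJ to 213.5 ± 26.2 in PWK/PhJ, Etnppl (ethanolamine phosphate phospholyase), from 33.2 ± 10.2 CPM in NOD/ShiLtJ to 385.6 ± 56.1 in PWK/PhJ, and Gls2 (liver glutaminase, which supplies ammonia), from 153 ± 26.9 CPM in A/J to 604 ± 74.6 in WSB/EiJ. Ahcy counts were not whole in any library and those of Dhtkd1 in 26, so both are uncertain. All 15 amino acid transporters tested were called, and in WSB/EiJ 9 were higher (15.5% of all genes). They included Slc25a12 (8.97 ± 0.273 CPM in A/J to 17.9 ± 0.657 in CAST/EiJ) and Slc43a1 (9.36 ± 4.28 CPM in C57BL/6J to 28.7 ± 6.28 in WSB/EiJ). Of 12 regulators 8 were called, a share below that of all genes, with 4 lower in A/J. One of them, Sirt5, a mitochondrial deacylase known to act on Cps1, ran from 4.77 ± 1.07 CPM in C57BL/6J to 15.1 ± 2.37 in WSB/EiJ.

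Zonation markers also differed by strain. Of 9 periportal markers 7 were higher in WSB/EiJ (15.5% of all genes tested) and 5 lower in NZO/HlLtJ (12.9%), and of 11 pericentral markers 5 were lower in WSB/EiJ (9.25%) and 5 higher in C57BL/6J (11.6%). CAST/EiJ had 3 periportal markers higher and 1 lower, and 3 pericentral markers higher and 4 lower (20.1% and 17.8% of all genes). PWK/PhJ had 4 periportal markers higher and 2 lower, and 0 pericentral markers higher and 2 lower (19.4% and 14.8%). In A/J 3 periportal markers were higher and 3 lower (15.9% and 11.6% of all genes tested). The lists share genes with the catabolism list above, such as Gls2 and Etnppl, and their part in the results for the 53 genes was not tested.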

How the data were processed

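Polyadenylated RNA from hepatocytes of 9 strains was sequenced with TruSeq libraries, per the labels' protocols. The authors deposited estimated counts per gene, not normalized, of which 11.1% were not whole; they were rounded here. The aligner and counter are not given in the sources used here; the submitters' processing notes name GRCm38, mm10, FastQC 0.11.5 and DESeq2 without roles. No strand protocol is named, so overlapping antisense genes cannot be told apart.

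Symbols and coordinates came from GENCODE M21 (GRCm38) and promoters from RefSeq (GRCm38.p6). Genes passing edgeR's filterByExpr by strain (14482 of 43346) were fitted with edgeR 4.0.16 (R 4.3.3): TMM factors, a quasi-likelihood model with a term per strain, an F test over 9 strains and 9 contrasts, each with Benjamini-Hochberg adjustment and a threshold of 0.05. The procedure was tested on simulated data. Library totals ran from 17015956 to 35078511 counts. Alternatives were DESeq2 1.42.0, median-of-ratios size factors, no filter, a mean of at least 10 counts, a GC correction, a replicate block, marker covariates, leaving out each library and, chosen after the data were seen, library totals without TMM.

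The members and lists were chosen with earlier results of these data known. Values per library are given for the urea cycle genes, the 15 genes with the largest F, called genes with at least 4-fold between strain means and the 2 with the smallest F; from other lists, the 4 or 2 with the largest F are named. Individual results of 2 genes that this rule selects are not reported here; counts and medians include them. Per-library values of other genes were chosen after they were seen.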

Additional observations from a re-analysis of the deposited data

How the results depend on the processing

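None of the 174 called differences reversed in any alternative run. DESeq2 left all 174 called, median-of-ratios size factors 171, a mean of at least 10 counts 173, the GC correction 167, no filter on low counts 143, library totals without TMM factors 140 and the marker covariates 117. Counts of genes called in a strain, higher and lower together, moved by more than 1.5 times under these settings. With Kupffer and endothelial covariates they were 21 in A/J (33 in the fit reported), 4 in C57BL/6J (16) and 11 in NZO/HlLtJ (17). With library totals and no TMM factors, chosen after the data were seen, they were 25 in 129S1/SvImJ (13), 3 in DBA/2J (8) and 32 in NZO/HlLtJ (17). The A/J count there was 45, within 1.5 times. Leaving out each library in turn gave 48 to 50 genes called among all strains, 8 to 16 in 129S1/SvImJ, 21 to 36 in A/J, 6 to 19 in C57BL/6J, 20 to 32 in CAST/EiJ, 1 to 8 in DBA/2J, 6 to 13 in NOD/ShiLtJ, 8 to 20 in NZO/HlLtJ, 12 to 21 in PWK/PhJ and 15 to 26 in WSB/EiJ. The cause was not tested. Libraries with the same replicate number did not deviate together on average (mean r 0.010 over 76 pairs, against -0.003 over 248 pairs with different numbers). Single pairs of the same number ran from -0.29 to 0.28, and whether the numbers mark shared handling was not tested. Fitting the number as a replicate block gave 19 in CAST/EiJ (31) and 4 in DBA/2J (8), and 132 of the 174 differences stayed called. Replicate 5 occurs only in CAST/EiJ, so the block fits that library with a term of its own. Otc, Aadat, Bckdha and Hgd were not called among strains with the marker covariates (adjusted p = 0.0510, 0.234, 0.118 and 0.158 in edgeR).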
